A study of Mus musculus with 6 samples.

Results

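The genes described are the matrix metalloproteinases (Mmp), the ADAM and ADAMTS proteases and the tissue inhibitors of metalloproteinases (Timp) on a mouse lung expression array. Members were taken from the annotation of the platform as every gene whose symbol starts with Mmp, Timp, Adam or Adamts followed by a digit and which had a value on at least 4 of 6 arrays, with 1 probe per gene. The rule found 38 members among 9774 genes measured on that many arrays. The platform carried 55 probes for 53 such genes, and 15 genes fell short of the array minimum, 10 of them with no value on any array. Of the 38 members, 31 were measured on 6 arrays, 3 on 5 arrays and 4 on 4 arrays.

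Ovalbumin (OVA) was the allergen: lungs of 6 C57 mice sensitized to it and then challenged, a model of airway allergy, were each set on a two-colour array against 1 RNA pool from the lungs of control C57 mice. RNA of both channels had been amplified. The sources used here do not state age, sex, dose or schedule, nor how many mice went into the pool. Each value is a log ratio of the 2 channels, read as log2. Which channel is on top is not given, so the sign of each ratio is printed as deposited, a size is a fold apart from the pool, and no sign stands for higher or lower expression in OVA lungs. To show which side known responses of this protocol lie on, the goblet cell gene Clca1, which allergen is known to induce, was at -3.11, -4.04, 0.84, -4.20, -3.96 and -3.90 in mice 1 to 6. The mucin gene Muc5ac and Retnla had means of -2.63 and -2.81, with mouse 3 at 0.22 and 1.005. In all of these genes mouse 3 was positive and every other mouse negative. Scgb1a1, the secretory protein of club cells, was positive in 6 of 6 mice, with a mean of 1.38 ± 0.37 (SD, n = 6). The pool is 1 control sample shared by every array, so the tests leave out the spread between control mice.

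The arrays measured between 10922 and 13132 probes. The array of mouse 3 had the smallest spread of ratios, an SD of 0.21 over probes, against 0.32 to 0.47 in the other mice. Over the 31 members on all arrays the SD was 0.46, 0.41, 0.24, 0.35, 0.23 and 0.18 in mice 1 to 6. It was below the SD over all genes measured in 6 mice in each mouse but mouse 3, where these were 0.24 and 0.23. Of 6 lung epithelium markers, 5 were on the array and all 5 had values, but a ratio gives no level and cannot show how abundant a transcript is. Of these 5, 4 passed the test, 2 negative and 2 positive, against 25.4% of all genes. The means of all 5 heart muscle markers tested and all 4 adipocyte markers tested were positive, and 5 and 3 of them passed the test, against 25.4% of all genes. Their medians ran from 0.098 in mouse 3 to 2.32 in mouse 1 for heart muscle, and from 0.63 in mouse 3 to 3.07 in mouse 6 for adipocytes.

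Matrix metalloproteinases are zinc-dependent enzymes that cut collagens, elastin and other matrix proteins, and most are made as inactive precursors. ADAMs are membrane-bound relatives that release growth factors, cytokines and receptors from the cell surface, while ADAMTS enzymes are secreted and cut proteoglycans and other matrix proteins. TIMPs block the active site of these enzymes. In allergic lungs these proteins are studied for their part in the entry of inflammatory cells and in the remodelling of the airway wall.

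A run of neighbouring Mmp genes lies on mouse chromosome 9. Many of its members have an AP-1 site close to a TATA box. Through this promoter layout cytokines and growth factors are known to act on them. The promoter stretches of Mmp12 and of 4 neighbours are shown because each holds a match to both motifs, while the ratios of these genes differed. Each stretch runs from 120 bases before to 20 bases after the annotated start, 5′ to 3′, from RefSeq on GRCm38.p6. Capitals mark every match to TGANTCA, the AP-1 core, and to TATAAA, both searched on both strands, and no 2 matches overlap in these stretches. The stretch of Mmp12 is chr9:7347254-7347393 on the plus strand, that of Mmp1b chr9:7388007-7388146 on the minus strand, that of Mmp1a chr9:7464021-7464160, that of Mmp3 chr9:7445702-7445841 and that of Mmp10 chr9:7502222-7502361, the last 3 on the plus strand.
Mmp12: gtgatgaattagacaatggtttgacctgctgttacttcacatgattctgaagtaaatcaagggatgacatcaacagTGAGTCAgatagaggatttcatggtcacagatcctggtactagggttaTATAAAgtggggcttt
Mmp1b: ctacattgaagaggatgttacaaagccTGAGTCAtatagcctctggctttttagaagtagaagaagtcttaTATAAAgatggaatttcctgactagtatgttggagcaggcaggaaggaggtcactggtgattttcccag
Mmp1a: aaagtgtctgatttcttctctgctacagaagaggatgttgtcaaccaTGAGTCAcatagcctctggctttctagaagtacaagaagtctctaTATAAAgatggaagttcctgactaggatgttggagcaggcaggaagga
Mmp3: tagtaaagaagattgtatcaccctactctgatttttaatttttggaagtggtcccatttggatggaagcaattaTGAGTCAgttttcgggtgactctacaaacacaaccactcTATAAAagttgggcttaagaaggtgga
Mmp10: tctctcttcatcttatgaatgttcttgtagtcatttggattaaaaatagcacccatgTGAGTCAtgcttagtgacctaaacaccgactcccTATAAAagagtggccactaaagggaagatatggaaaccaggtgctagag

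Windows of 300 bases around the start, 250 of them upstream, were found for 21 of the 38 members, with several windows for some genes. Both motifs were present in 7 of these 21 genes, Mmp13, Mmp12, Mmp1b, Mmp3, Mmp1a, Mmp10 and Mmp20, which all lie in the chromosome 9 run. Among 32851 windows of all genes, 7.81% held TGANTCA, 13.6% held TATAAA and 1.54% held both. These shares count windows, whereas a member counts as a gene if any of its windows holds both, so the 2 were not tested against each other. Counting the first transcribed base as 0, TGANTCA began at -44 in the Mmp12 window shown, at -93 in Mmp1b, -73 in Mmp1a, -46 in Mmp3 and -63 in Mmp10, and TATAAA began at 4, -49, -28, -7 and -29 in the same order of genes. The first of the 2 annotated Mmp12 windows held neither motif. The TATAAA match of Mmp12 thus lies after the annotated start. A match is a description of these letters and says nothing of binding or of a working TATA box. The mean log2 ratios of the 5 genes shown were -1.39 for Mmp12, -0.33 for Mmp1b, -0.06 for Mmp1a, 0.12 for Mmp3 and -0.007 for Mmp10. Mmp12 passed the test and the other 4 did not. Mmp8, which also lies in the run, passed too at a mean of -0.41, and its window held TATAAA but no TGANTCA.

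Each probe was tested against a ratio of 0 with limma, and p-values were adjusted over 11629 probes with the Benjamini-Hochberg method at 0.05. Of the 38 members, 8 passed, of which 5 were negative and 3 positive. Over all genes 25.4% passed (12.8% negative, 12.7% positive), and over all probes 24.4%, so the share of members that passed lies near the background and is no result about the family. At least 2-fold apart was 1 member past the test, Mmp12, against 1.64% of all genes. The median of the mean log2 ratio was -0.06 over the members, against -0.003 over all genes, and the median SD between mice was 0.17 against 0.15. A single sign in 6 of 6 mice was seen for 8 of the 31 members on all arrays, against 30.7% of the 7503 genes so measured. An unadjusted p under 0.05 was found for 15 members and for 40.7% of all genes, which is about the same share.

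**Figure D1:**
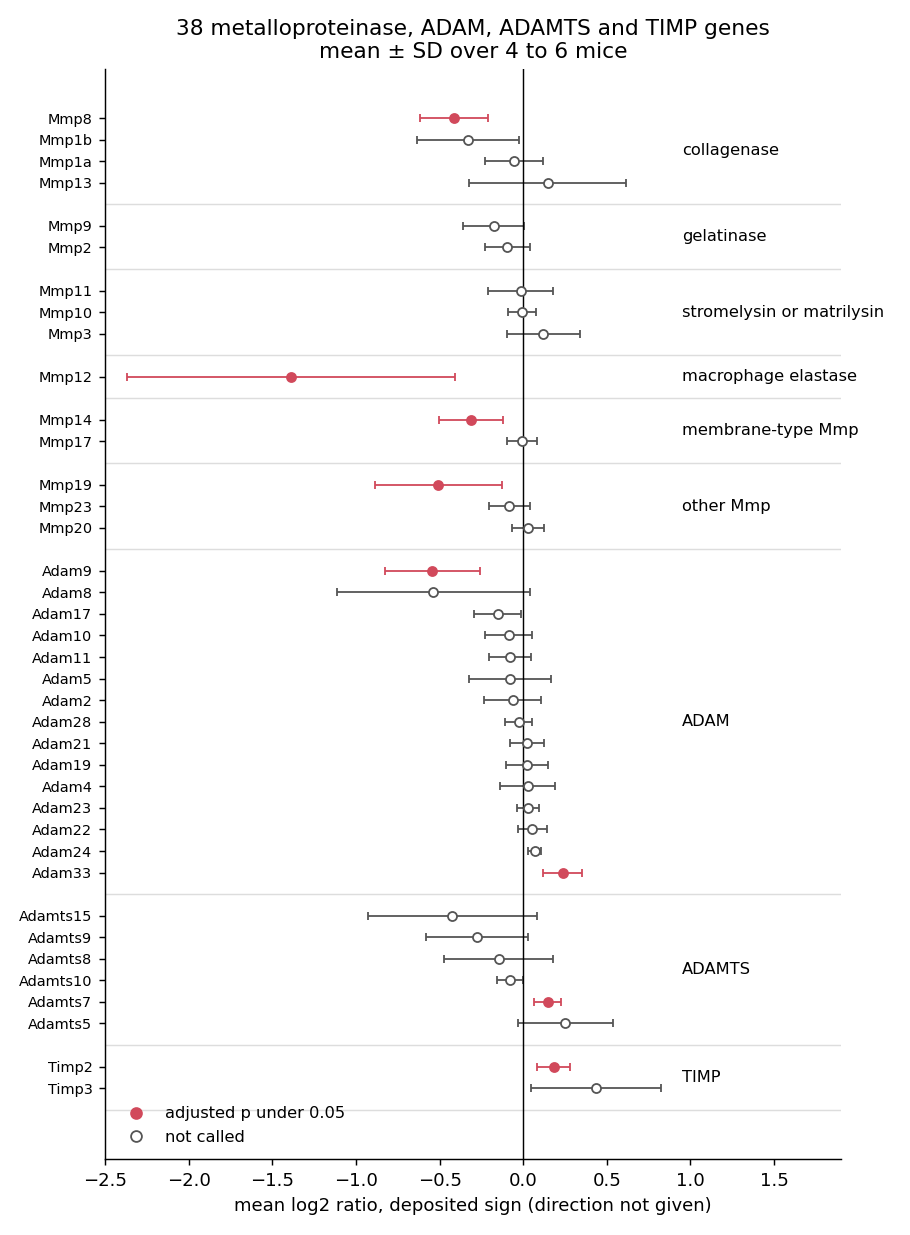
Mean log2 ratio (x axis, deposited sign, direction not given) of the 38 members by class, with bars for the SD over the 4 to 6 mice measured; filled points passed an adjusted p of 0.05. Mmp12 at -1.39 lies apart from the other members, whose means run from -0.54 to 0.44, and 26 of the 38 means lie within 0.2 of 0.

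The macrophage elastase Mmp12, which macrophages secrete and which degrades elastin, had the largest ratio of the family. It was at -1.07, 0.16, -2.35, -1.88 and -1.81 in mice 1, 3, 4, 5 and 6 and had no value in mouse 2. Mice 1, 4, 5 and 6 were negative by more than 1 log2 unit, and mouse 3 was slightly positive. The mean was -1.39 ± 0.98 (SD, n = 5), 2.62-fold apart from the pool, with a 95% interval of -2.23 to -0.55 (limma, adjusted p = 0.0325). Without mouse 3 the mean was -1.78 and 3.43-fold apart (adjusted p = 0.00361). Leaving out any other mouse, mouse 2 with no value included, ended the call, with adjusted p up to 0.096, and so did a fit with unmoderated variances (adjusted p = 0.113). Of 5 macrophage markers tested, 1 passed, against 25.4% of all genes. It was the cytoskeletal adaptor Aif1 at a mean of -1.80. The lysosomal Cd68 and the scavenger receptors Msr1 and Mrc1 had means of -0.23 each, and the scavenger receptor Marco 0.44. The probe of Mrc1 lies beside a stronger probe of the same sign. The median of the 5 macrophage markers was -0.52, 0.21, -0.37, -0.10 and -0.39 in mice 1, 3, 4, 5 and 6, and their part in the Mmp12 ratio was not tested. In a whole lung, a difference in the number of cells of a type and one in RNA per cell cannot be told apart.

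Collagenases cut fibrillar collagens, and 1 of 4 measured passed, against 25.4% of all genes. Mmp8, the collagenase stored in neutrophil granules, was at -0.60, -0.62, -0.28, -0.15, -0.56 and -0.27 in mice 1 to 6. Every mouse was negative, with mouse 4 nearest to 0. The mean was -0.41 ± 0.20 (SD, n = 6), 1.33-fold apart (limma, adjusted p = 0.0104), and the call was kept when any single mouse was left out, with adjusted p between 0.0116 and 0.0371. Neutrophil markers were tested for 6 genes, of which the granule peroxidase Mpo passed at -0.15 with all mice and none did without mouse 3. Over all genes 25.4% passed with all mice and 27.4% without mouse 3. S100a8 and S100a9, the calcium-binding proteins abundant in neutrophils, had means of -0.07 ± 0.87 and -0.13 ± 1.02, and the part of neutrophil numbers in the Mmp8 ratio was not tested. The probe of S100a9 lies beside a stronger probe of the same sign.

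Mmp1b, a rodent relative of interstitial collagenase, had a mean of -0.33 ± 0.30 (n = 6) and did not pass (limma, adjusted p = 0.0605). It was negative in 5 of 6 mice, between -0.79 and -0.21, and at 0.098 in mouse 3. Without mouse 3 it was at -0.41 and passed (adjusted p = 0.0211). Mmp1a, a close copy of Mmp1b whose probe has the next number on the array, was between -0.31 and 0.11. Where a probe can bind transcripts of both copies, their ratios cannot be told apart. The third rodent collagenase, Mmp13, had values from -0.49 in mouse 4 to 0.65 in mouse 6 and a mean of 0.15 ± 0.47 (n = 5).

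Gelatinases, which degrade denatured collagen and basement membrane, did not pass. Mmp9, the gelatinase of neutrophils and macrophages, was at -0.175 ± 0.18 (SD, n = 6), negative in 5 of 6 mice, with a 95% interval of -0.33 to -0.015 (limma, adjusted p = 0.101). Mouse 4, at 0.145, was its exception, and without that mouse Mmp9 was at -0.24 and passed (adjusted p = 0.0398). Mmp2, the gelatinase of mesenchymal cells, was at -0.09 ± 0.14, with a 95% interval of -0.22 to 0.03. For both gelatinases these intervals leave out a difference of 2-fold on either side on the log2 scale, as far as the deposited ratios can show one.

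None of the 3 stromelysins tested passed. Their means were 0.12 ± 0.22 for Mmp3, which cuts proteoglycans and activates other Mmps, -0.007 ± 0.086 for Mmp10 and -0.015 ± 0.19 for Mmp11 (SD, n = 6 each). Mmp3 was positive in 4 of 6 mice, with 0.41 in mouse 1 and 0.31 in mouse 2. The probe of Mmp11 lies beside a stronger probe of the same sign. The matrilysin Mmp7, an epithelial protease, had no value on any array.

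Of the membrane-type enzymes, Mmp14, which activates the Mmp2 precursor at the cell surface, was at -0.39, -0.405, 0.064, -0.475, -0.34 and -0.34 in mice 1 to 6. The 5 negative mice lay within a narrow range, and mouse 3 stood apart on the other side of 0. The mean was -0.31 ± 0.19 (SD, n = 6), 1.24-fold apart (limma, adjusted p = 0.0201), and without mouse 3 it was -0.39 (adjusted p = 0.00224). Leaving out mouse 2, 4, 5 or 6 ended the call, with adjusted p up to 0.0671, as did unmoderated variances (adjusted p = 0.0609). Mmp17, a membrane-type enzyme held by a lipid anchor, was at -0.006 ± 0.089.

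Mmp19, an enzyme that cuts basement membrane proteins, was the other Mmp past the test. Its values were -0.67, -1.115, -0.19, -0.67, -0.27 and -0.12 in mice 1 to 6. Mice 1, 2 and 4 were lowest, and no mouse was positive. The mean was -0.51 ± 0.38 (SD, n = 6), 1.42-fold apart (limma, adjusted p = 0.0302), and leaving out mouse 1, 2 or 4 ended the call, with adjusted p up to 0.0903. Unmoderated variances ended it too (adjusted p = 0.0891). Mmp23 at -0.08 and the enamel protease Mmp20 at 0.03 did not pass. In all, 4 of 15 Mmp genes passed, all negative. That is 26.7%, near the 25.4% of all genes that passed (12.8% negative). Of the 15 means 12 were below 0, against 4974 of 9774 over all genes, but 10 of the 15 lay within 0.2 of 0. Among those below 0, Mmp10, Mmp11 and Mmp17 changed sign with a mouse left out.

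**Figure D2:**
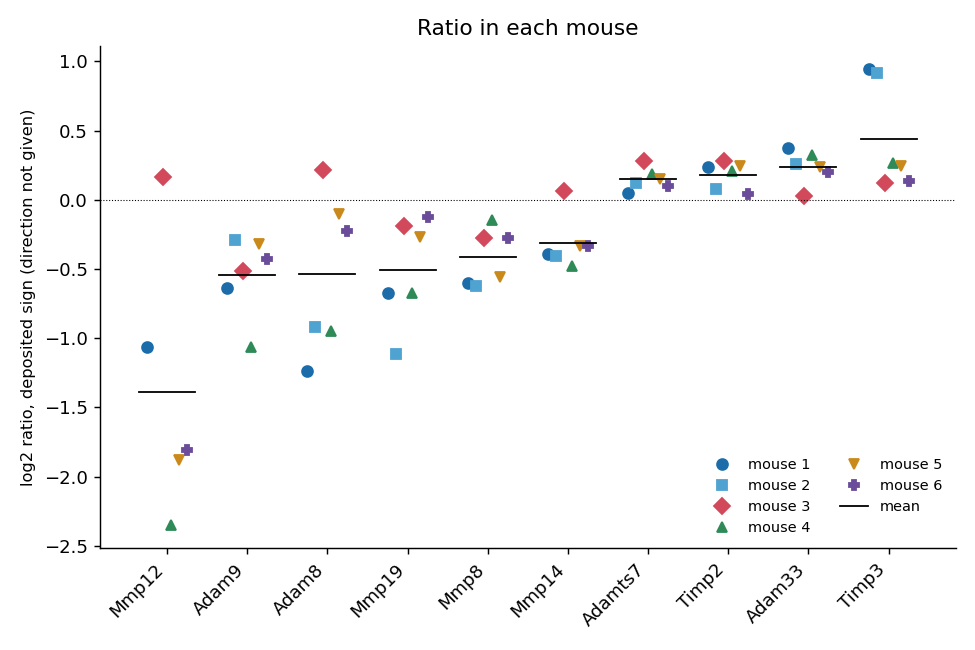
Log2 ratio (y axis, deposited sign, direction not given) in each mouse for the 8 members past an adjusted p of 0.05, for members with a mean at or beyond 0.5 on either side, and for both Timps tested; lines are means. Mouse 3 is the exception in Mmp12, Adam8 and Mmp14, and mice 1 and 2 are highest for Timp3.

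Among the ADAMs, 1 passed on each side of 15 tested, which is 13.3% against 25.4% of all genes. Adam9, a widely expressed sheddase, was at -0.64, -0.29, -0.51, -1.07, -0.32 and -0.43 in mice 1 to 6. Every mouse was negative, mouse 3 included, and mouse 4 was lowest. The mean was -0.54 ± 0.29 (SD, n = 6), 1.46-fold apart (limma, adjusted p = 0.0109), and the call was kept when any single mouse was left out, with adjusted p between 0.0172 and 0.0318. Adam9 and Mmp8 were the members that kept their call in all 6 such fits.

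Adam8, a protease of granulocytes and macrophages, had a mean near that of Adam9 with a spread about its own size. It was at -1.24, -0.92, 0.22, -0.95, -0.105 and -0.23 in mice 1 to 6. Mice 1, 2 and 4 were clearly negative, mice 5 and 6 close to 0 and mouse 3 positive. Its mean of -0.54 ± 0.58 (SD, n = 6) did not pass (limma, adjusted p = 0.0836), and without mouse 3 it was -0.69 and passed (adjusted p = 0.0311).

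Adam33, a gene of mesenchymal cells known from genetic studies of human asthma, was at 0.37, 0.26, 0.03, 0.32, 0.24 and 0.20 in mice 1 to 6. All mice were positive, and mouse 3 was nearest to 0. The mean was 0.24 ± 0.12 (SD, n = 6), 1.18-fold apart (limma, adjusted p = 0.0162), and leaving out mouse 2 or 4 ended the call, with adjusted p of 0.0542 and 0.0576. Fibroblast markers lay on both sides beside it: of 6 tested, the collagens Col1a1 and Col3a1 passed at -1.45 and -1.67, the growth factor receptor Pdgfra passed at 0.45, and the proteoglycan Dcn was at 0.13 ± 0.74. Their part in the Adam33 ratio was not tested.

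Adam17, the enzyme that releases tumour necrosis factor, had values on 4 arrays and a mean of -0.15 ± 0.14 (limma, adjusted p = 0.158). Adam10, the main sheddase of the low-affinity IgE receptor and of Notch, was represented by 2 probes, of which 1 passed. The probe on 6 arrays was at -0.07, 0.02, -0.03, -0.095, 0.02 and -0.36 in mice 1 to 6, with a mean of -0.09 ± 0.14 (adjusted p = 0.29). The probe on 5 arrays, which the rule passes over, was at -1.15, -0.98, -0.23, -0.50 and -0.29 in mice 1, 2, 3, 4 and 6, with a mean of -0.63 ± 0.42 (adjusted p = 0.0285). This second probe was lower in 4 of 5 mice, by up to 1.08 in mouse 1, and 0.06 higher in mouse 6. An exact sign-flip test of the difference, two-sided and chosen after the values were seen, gave p = 0.125, where 5 mice allow no p below 0.0625. The result for Adam10 therefore depends on the probe, and with the mean of both probes it was at -0.30 and passed (limma, adjusted p = 0.0338).

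**Figure D3:**
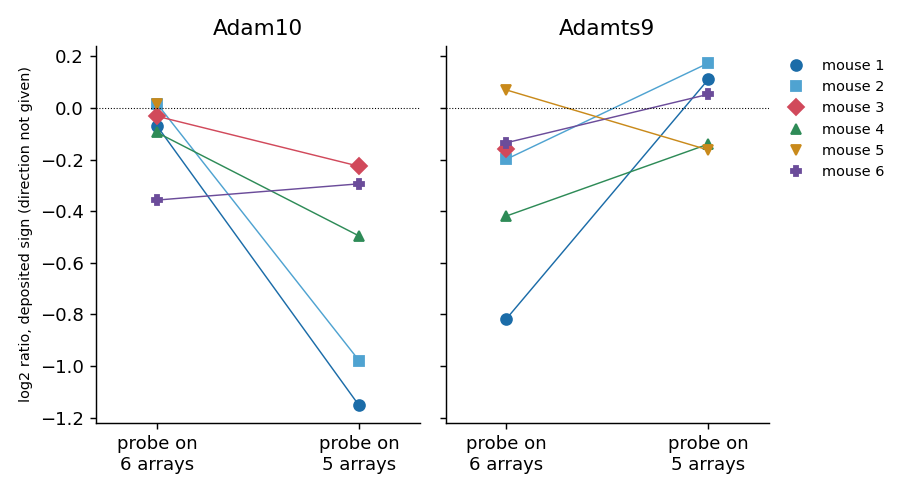
Log2 ratio (y axis, deposited sign, direction not given) of the 2 probes of Adam10 and of Adamts9, each line joining the values of 1 mouse. For Adam10 the probe on 5 arrays lies far below the other in mice 1 and 2, at -1.15 and -0.98, and for Adamts9 the largest gap is in mouse 1.

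The remaining ADAMs, among them the sperm and testis genes Adam2, Adam4, Adam5, Adam21 and Adam24 and the neural, non-proteolytic Adam11, Adam22 and Adam23, had means between -0.08 and 0.07. None of these 8 passed, nor did Adam19 at 0.02 and Adam28, a protease of lymphocytes, at -0.03. Adam24 was positive in 6 of 6 mice at a mean of 0.07 ± 0.04 (limma, adjusted p = 0.169). Copies of the same sequence within an array, 10 sequences spotted 17 times each, had median SDs between 0.0812 and 0.226, which is the scale on which ratios of this size in a single mouse can be read.

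Of 6 ADAMTS genes, 1 passed, which is 16.7% against 25.4% of all genes. Adamts7, which degrades cartilage oligomeric matrix protein, was at 0.046, 0.12, 0.28, 0.19, 0.15 and 0.096 in mice 1 to 6. All mice were positive, with mouse 1 nearest to 0 and mouse 3 farthest from it. The mean was 0.15 ± 0.08 (SD, n = 6), 1.11-fold apart (limma, adjusted p = 0.0377), and only leaving out mouse 1 kept the call. Quantile normalization of the arrays and unmoderated variances also ended it (adjusted p = 0.0572 and 0.0507).

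The aggrecanases Adamts5, Adamts8, Adamts9 and Adamts15 did not pass. Adamts15 had the lowest mean of these, -0.42 ± 0.51 (n = 6), with values from -0.94 in mouse 3 to 0.23 in mouse 5 (limma, adjusted p = 0.112). Adamts5 was positive in 5 of 6 mice at a mean of 0.25 ± 0.28, with 0.67 in mouse 1 and 0.44 in mouse 2 (adjusted p = 0.103). Adamts9 was again measured with 2 probes, at -0.28 ± 0.31 for the probe on 6 arrays and at 0.007 ± 0.15 for the probe on 5. The second exceeded the first in 4 of 5 mice, by 0.93 in mouse 1 (exact sign-flip p = 0.1875). This test too allows no p below 0.0625 with 5 mice. Over both pairs of probes compared, the adjusted p was 0.1875 for each.

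Both TIMPs that could be tested were positive in 6 of 6 mice. Timp2, which inhibits Mmps and also helps Mmp14 to activate Mmp2, was at 0.23, 0.076, 0.28, 0.21, 0.25 and 0.045 in mice 1 to 6. Mice 2 and 6 were nearest to 0. The mean was 0.18 ± 0.10 (SD, n = 6), 1.13-fold apart (limma, adjusted p = 0.0257), and leaving out mouse 1, 3, 4 or 5 ended the call, with adjusted p up to 0.079.

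Timp3, the matrix-bound inhibitor that also blocks Adam17, was at 0.95, 0.91, 0.12, 0.26, 0.24 and 0.13 in mice 1 to 6. Mice 1 and 2 lay far above the other 4. The mean was 0.44 ± 0.39 (SD, n = 6), 1.35-fold apart, and did not pass (limma, adjusted p = 0.0507), although it passed in 8 of 11 alternative settings and without mouse 3 (adjusted p = 0.0439). Heart muscle markers were highest in the same mice, with medians of 2.32 and 1.86 in mice 1 and 2 against 0.098 to 1.35 in the other mice. In mice 4 and 6 those medians were 1.35 and 1.33, where Timp3 was at 0.26 and 0.13. The median of the fibroblast markers was also highest in mice 1 and 2, at 0.36 and 0.255 against medians below 0 in the other mice. Its members differed in these 2 mice. Dcn was at 1.01 and 0.64, Pdgfra at 0.81 and 0.82 and Dpt at 0.69 and 0.255. Col3a1 was at -2.12 and -2.65 and Col1a1 at -1.12 and -1.46. Lum was at 0.03 in mouse 1 and had no value in mouse 2. Lung epithelium medians were 0.52 and 0.21 in mice 1 and 2 and 0.39 in mouse 4, and adipocyte medians were highest in mouse 6. The part of any of these cell types in the Timp3 ratio was not tested. Timp1, the TIMP that inflammation is known to induce, had no value on any array and was not analysed here.

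The array minimum leaves the following genes on its 2 sides. On 4 arrays, Adam17, Adamts10, Adam21 and Adam22 had means of -0.15, -0.08, 0.02 and 0.06. With values on 3 arrays and therefore no members, Adam18 averaged 0.21, Timp4 0.12, Adam1b 0.098, Mmp24 -0.004 and Adam1a -0.01.

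The number of members past the test changed with the mouse left out, and so did the share of all genes. Without mouse 3, 9 members passed, 7 negative and 2 positive, against 27.4% of all genes. Without mouse 2 or mouse 4, 3 members passed, against 12.6% and 11.9% of all genes. Without mouse 5 the count was 4, against 18.7%. It was 5 without mouse 1 or mouse 6, against 21.4% and 15.4%. Of 5 members called on the negative side, mouse 3 had 3 below 0, while in each other mouse every one measured was below 0. The 3 members called on the positive side were above 0 in each of the 6 mice.

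**Figure D4:**
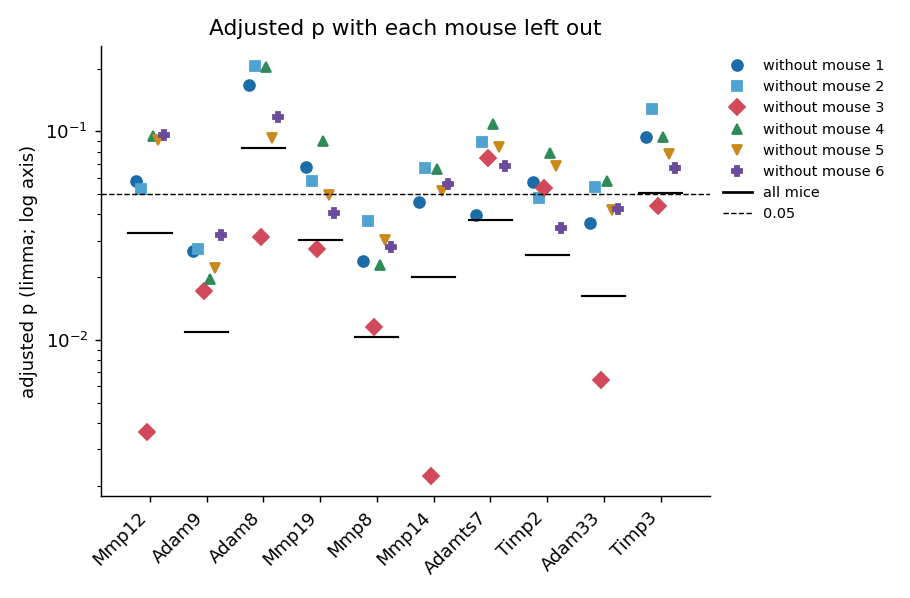
Adjusted p (y axis, log scale, limma over all probes) with all mice (line) and with each mouse left out (symbols), for the 8 members past 0.05 and for Adam8 and Timp3; the dashed line is 0.05. Mmp8 and Adam9 stay below it in every fit, and leaving out mouse 3 lowers the adjusted p of Mmp12 to 0.00361 and of Mmp14 to 0.00224.

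Genes that act on or are cut by these enzymes were taken from 4 lists. The lists were chosen with earlier results of these data known, so their counts are a description and no test. Col1a1, Col3a1 and decorin (Dcn) also serve as fibroblast markers above. Of 18 matrix substrates 12 were tested, and 7 passed, all negative, with a median of -0.44 over the list. Over all genes 25.4% passed and 12.8% were negative, with a median of -0.003. Without mouse 3 the count was also 7, all negative, against 27.4% of all genes called on either side. Col3a1 and Col1a1, the fibrillar collagens cut by collagenases, were at -1.67 ± 0.92 and -1.45 ± 0.40 (limma, adjusted p = 0.0109 and 0.0028). Vcan, a proteoglycan cut by ADAMTS enzymes, was at -1.08 ± 0.77, though its probe lies beside a stronger probe of the same sign. The basement membrane protein Nid1 was at -0.55 ± 0.21 and elastin, Eln, the substrate of Mmp12, at -0.54 ± 0.30. Decorin, biglycan, 2 laminin chains and Col4a2 did not pass, with means between -0.09 and 0.13.

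Among substrates that ADAMs shed, 6 of 15 tested passed, all negative, against the same 12.8% of all genes, and the median was -0.20. Without mouse 3, the counts were 7 negative and 1 positive, against 27.4% of all genes called on either side. Tumour necrosis factor, Tnf, was at -1.19 ± 0.68 (limma, adjusted p = 0.0126) and its receptor Tnfrsf1b at -0.80 ± 0.54 (adjusted p = 0.0216), both released by Adam17. Vcam1, an adhesion molecule for eosinophils and lymphocytes, was at -0.75 ± 0.54, and the growth factor Ereg at -0.90 ± 0.55 (n = 5). Fcer2a, the low-affinity IgE receptor cut by Adam10, was at -0.20 ± 0.42 and did not pass.

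The list of activators and inhibitors of Mmps had 2 calls on each side among 9 tested, against 25.4% of all genes called. Without mouse 3 it had 3 negative and 2 positive calls, against 27.4% of all genes. Plau, the urokinase that starts the plasmin cascade upstream of several Mmps, was at 0.26 ± 0.13 and Bsg, a membrane protein that induces Mmps in neighbouring cells, at 0.24 ± 0.14 (limma, adjusted p = 0.0143 and 0.0226). Plat, the other plasminogen activator, was at -0.41 ± 0.28 and Serpinb2, an inhibitor of urokinase, at -0.26 ± 0.13 (adjusted p = 0.0247 and 0.015). Reck, a membrane-anchored Mmp inhibitor, was at 0.18 ± 0.40 and did not pass. Of 10 related metzincins or ADAMTS-like genes outside the family rule, 3 passed, which is near the 25.4% of all genes. They were Adamtsl5 at -0.23, Pappa at -0.13 and Adamtsl2 at 0.22. Without mouse 3 Pappa did not pass (limma, adjusted p = 0.0949), which left 1 call on each side, against 27.4% of all genes. The probe of Adamtsl5 also lies beside a stronger probe.

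**Figure D5:**
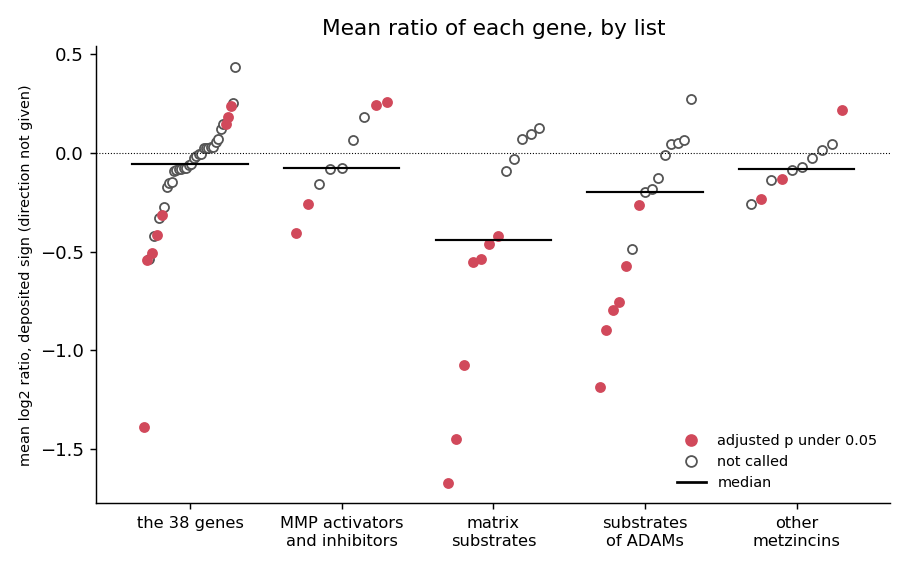
Mean log2 ratio (y axis, deposited sign, direction not given) of each gene in the family and in 4 lists of related genes; filled points passed an adjusted p of 0.05 and lines are medians. The matrix substrates have the lowest median, -0.44, with 7 of 12 genes past the test on the negative side, while the family itself has a median of -0.06. The lists were chosen with earlier results of these data known.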

How the data were processed

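The file holds log ratios deposited by the authors, 1 per spot and array, and they were read here as log2: a base of 10 would make the largest value a ratio of 899498, and base 2 a ratio of 62. A natural logarithm stays possible and would make every fold larger. The sources used here do not state the scanner, background correction, normalization, spot filter or dyes. Of 17280 probes, 14722 had 1 gene symbol, 1 had several and 2557 had none. For 14445 probes the gene was found in RefSeq (GRCm38.p6, names only) and its RefSeq symbol was used, whether or not it differed. This changed the symbol of 0 probes of the family. Repeated control spots (170) and 4 plant spots were left out. Each array was centred on its median over the probes on all arrays. Probes on at least 4 arrays were tested with limma 3.58.1 in R 4.3.3 (lmFit, intercept alone, eBayes, two-sided, Benjamini-Hochberg over 11629 probes), and the fit was tested on simulated data. The number of arrays limits the precision. The labels give no batches and name 6 separate mice. Values in every mouse are given for members past 0.05, for Timps and for means at or beyond 0.5 on either side; the others are given by class with up to 3 examples, and list genes with up to 4. Adam10, Adam17, Mmp1a, Adam24, family genes on 3 or 4 arrays and marker genes were named after their values were seen. So were Clca1, Muc5ac, Retnla, Scgb1a1, Reck, Fcer2a and the list genes without a call. The members and lists were chosen with earlier results of these data known. Alternatives covered centring, scaling, quantile normalization, array minimum, weights, variance models, probe choice, neighbouring probes, thresholds and leaving out each mouse. Promoter sequences come from RefSeq. Summaries and figures used Python 3.11.15 and matplotlib 3.10.9.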

Additional observations from a re-analysis of the deposited data

Results flagged for a closer look

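In 38 groups of 4 to 6 values, one per member, 3 single mice lay far from the others, and chance alone gives this in about 1 in 20 such groups. Mmp14 was at 0.064 in mouse 3, while the other 5 mice lay between -0.475 and -0.34, so that the gap was 0.744 of the whole range, past Dixon's 95% limit for 6 values. Adam10 was at -0.357 in mouse 6 with the other mice between -0.095 and 0.017, a gap of 0.701 of the range. Mmp20 was at 0.201 in mouse 2 with the other 4 values between -0.032 and 0.001, a gap of 0.858 of the range.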

How the results depend on the processing

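Of 8 members past the test, 5 negative and 3 positive, the same or similar counts (8 to 11) were found with uncentred, scaled or quantile-normalized values, other array minimums, array weights, robust variances, 1 or all probes per gene and without probes beside a stronger one. With unmoderated variances 4 members passed, 2 of them negative, and Mmp12, Mmp14, Mmp19 and Adamts7 did not. At an adjusted p of 0.01 in limma 0 passed on either side, against 15 with an unadjusted p under 0.05 (40.7% of all genes had one), and with a floor of 2-fold 1 passed, with 1 negative and 0 positive. Leaving out each mouse gave 3 to 9 members (11.9% to 27.4% of all genes), 2 to 7 negative and 0 to 2 positive. No called member changed sign in any setting: 82 of 87 values kept their call under the other settings and 25 of 48 with a mouse left out. Of the 30 uncalled means, 8 changed sign with a mouse left out, all of them near 0. Mmp10 was at 0.011 with array weights and between -0.024 and 0.016 with a mouse left out, Mmp11 between -0.081 and 0.026, Mmp17 between -0.029 and 0.016, and Mmp20 between -0.015 and 0.044. Adam2 was at 0.0008 and Adam4 at -0.022 without mouse 5, Adam21 at -0.012 without mouse 4 and Adam19 at -0.012 without mouse 6. The cause was not tested. Signal over background was not analysed here. No paired analysis was possible because all arrays belong to 1 group measured against a shared pool.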
